A study of Mus musculus with 6 samples.

Results

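The genes described here are 30 genes of cholesterol and fatty acid synthesis, listed by their place in the pathway. The list was chosen with earlier results of these data known. They comprise 18 genes of the sterol arm, which leads from acetyl-CoA through mevalonate to cholesterol, 6 genes of the fatty acid arm, 5 regulators and the sterol carrier Stard4. A probe set was used when the gene was the only symbol the platform annotation gives it, and a gene with several was represented by the probe set with the highest mean over the 6 arrays. By this rule 29 of the 30 genes were measured, with 67 of the 45037 probe sets tested, out of 18193 genes in all. Acat2, a thiolase of the sterol arm, was not analysed here.

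Total RNA of the proximal colon, taken from individual mice 1 year of age, had been hybridized to 6 Affymetrix mouse genome arrays, 3 of controls and 3 of Hnf4α mutants. Hnf4α is a nuclear receptor of the gut and liver epithelium. The mutants carried Hnf4α alleles flanked by loxP sites and a Cre recombinase driven by the villin promoter, which acts in intestinal epithelial cells and leaves Hnf4α in other cells. The controls were littermates labelled wildtype, and whether they carried loxP alleles or Cre is not given in the sources used here. All 6 mice were kept pathogen free and received ketamine and xylazine before sacrifice. Because RNA came from the colon and not from isolated cells, fewer cells of a type and less RNA per cell cannot be told apart.

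The sterol and fatty acid genes are switched on together by the SREBP transcription factors, which are made as precursors in the membrane of the endoplasmic reticulum. SCAP escorts them to the Golgi for cleavage when sterols are scarce, and the INSIG proteins hold the complex back when sterols are plentiful. SREBP2 acts mostly on sterol genes and SREBP1c mostly on fatty acid genes, usually beside NF-Y, a factor that binds the CCAAT box. The intestinal epithelium makes much of its own cholesterol, and dividing cells need sterols and fatty acids for new membranes.

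The targeted gene followed the labels. The log2 signal of Hnf4a lay from 11.97 to 12.23 in controls and from 10.09 to 10.17 in mutants, a log2 difference of -1.94 (adjusted p = 0.000788 from limma). The labels give male for mutant replicates 2 and 3 and female for the other mice, but Xist was between 5.03 and 5.32 in every mutant and between 9.94 and 10.96 in every control, and the Y-linked Eif2s3y was at 7.85 or more in every mutant. By their RNA all mutants were male and all controls female, so that sex and genotype cannot be told apart in any value below. Nsdhl and Ebp, of the sterol arm, lie on the X chromosome. Mutant replicate 2 stood apart in the RNA of muscle and matrix markers. Relative to the control mean on the log2 scale, its median was -3.91 over 15 smooth muscle markers and -3.11 over 15 fibroblast and matrix markers. The main results are therefore also given without that replicate.

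Promoters of 4 genes are shown because the sequence letters known to bind NF-Y, the partner of SREBP, recur in the members. In 1 of the 4 there is also a match to the form of the SREBP element that was searched. Hmgcs1 makes HMG-CoA early in the sterol arm. Msmo1 had the largest log2 difference of that arm among genes with a promoter in the table. Fasn builds fatty acids and Insig1 is the feedback regulator. Each sequence is the 250 bases before the RefSeq start of the gene on GRCm38.p6, 5′ to 3′ on the gene's own strand. Capitals mark matches on either strand to the CCAAT box, to the SREBP element in the form TCACNCCAC or to CACGTG, a form of the E-box. The CCAAT box reads ATTGG from the opposite strand. Other forms of the SREBP element and of the E-box were not searched.
Hmgcs1, chr13:119690101-119690350, plus strand: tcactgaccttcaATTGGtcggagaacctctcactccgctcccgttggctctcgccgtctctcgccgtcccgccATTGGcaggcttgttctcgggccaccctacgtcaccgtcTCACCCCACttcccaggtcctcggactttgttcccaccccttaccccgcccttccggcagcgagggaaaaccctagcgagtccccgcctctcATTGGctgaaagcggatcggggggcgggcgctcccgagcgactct
Msmo1, chr8:64733579-64733828, minus strand: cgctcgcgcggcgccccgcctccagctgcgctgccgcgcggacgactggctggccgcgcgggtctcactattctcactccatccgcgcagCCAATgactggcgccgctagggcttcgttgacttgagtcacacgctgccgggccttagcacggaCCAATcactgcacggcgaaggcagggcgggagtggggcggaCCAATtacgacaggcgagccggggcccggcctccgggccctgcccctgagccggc
Fasn, chr11:120824548-120824797, minus strand: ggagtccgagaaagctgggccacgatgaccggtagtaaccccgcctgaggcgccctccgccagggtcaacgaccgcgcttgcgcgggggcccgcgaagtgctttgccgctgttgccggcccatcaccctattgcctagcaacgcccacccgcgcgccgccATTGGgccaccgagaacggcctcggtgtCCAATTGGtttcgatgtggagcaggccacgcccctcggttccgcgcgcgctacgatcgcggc
Insig1, chr5:28071162-28071411, plus strand: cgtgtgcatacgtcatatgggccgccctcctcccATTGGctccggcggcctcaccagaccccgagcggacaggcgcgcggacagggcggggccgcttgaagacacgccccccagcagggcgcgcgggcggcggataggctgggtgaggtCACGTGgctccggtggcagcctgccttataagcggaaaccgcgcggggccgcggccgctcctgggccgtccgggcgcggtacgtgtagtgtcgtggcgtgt

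Of the 29 measured genes, 23 had a promoter in the RefSeq table, in 31 windows from 250 bases before to 50 after a start, and a gene was counted when any of its windows held the motif. A CCAAT box was found in 20 of these 23 genes (87.0%), against 41.1% of 27025 genes and 42.6% of the 5129 genes on the array that were at least as bright as the dimmest of the 23. By window it was found in 21 of 31, against 37.4% of all windows. It was found in each of the 14 measured sterol genes with a window. The element TCACNCCAC was found in 1 of the 23, Hmgcs1, from base -137 to base -129, and in 1.44% of all genes. CACGTG was found in Dhcr7, Hsd17b7, Insig1, Sc5d and Scap, 21.7% of the 23 genes against 8.09% of all genes and 665 of the 5129 bright ones. An HNF4 motif, CAAAGTCCA, was found in 0 of the 23 genes and in 0.555% of all genes. The 2 CCAAT matches of Fasn nearest to the start, at -62 to -58 and -59 to -55, overlap each other on opposite strands. A match is a run of letters and was not tested as a binding site.

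Genes of the sterol arm were higher in the mutant colon by a modest amount, none of them past the adjusted threshold. All 17 measured sterol genes had a positive log2 difference, mutant minus control, with a median of 0.55 and a range of 0.09 to 1.00, while the median over all 18193 genes was 0.05. The fatty acid arm was mixed, with a median of 0.26 over 6 genes, from -0.26 for Scd1 to 1.28 for its paralog Scd2. The 5 regulators lay between 0.06 and 0.41 with a median of 0.36, and Stard4 was at -0.24. Over the 29 genes, 27 differences were positive and 2 were negative, with a median of 0.49. Of all genes, 10984 of 18193 were positive. Below, signals are on the log2 scale in the order of replicates 1, 2 and 3, and differences are log2 differences, mutant minus control.

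No member passed an adjusted p of 0.05 from limma in either direction, against 0.484% of all genes called higher and 0.396% called lower. The smallest adjusted p was 0.105. At an unadjusted p under 0.05, 17 of the 29 members were higher, against 10.0% of all genes, and 0 were lower, against 6.18%. In 14 of the 29 every mutant lay above every control, which held for 14.5% of all genes, and in 0 every mutant lay below, which held for 8.86%. Without mutant replicate 2, 26 of 29 differences were positive with a median of 0.38, and 11 members were higher at an unadjusted p under 0.05, against 6.29% of all genes. Without control replicate 3 that number was also 11, and the share of all genes was not computed for that setting. With arrays weighted by their quality, Dhcr7, Fdft1, Msmo1 and Sqle passed the adjusted threshold, as did 599 of the 45037 probe sets. Without control replicate 2, Fdft1 and Sqle passed it, as did 336 probe sets, against 239 with all arrays at equal weight. Control replicate 2, the highest control for 17 of the 17 sterol genes, had the lowest array weight, 0.456. Genes of 1 pathway are not independent observations, and the list was chosen with earlier results of these data known.

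**Figure D1:**
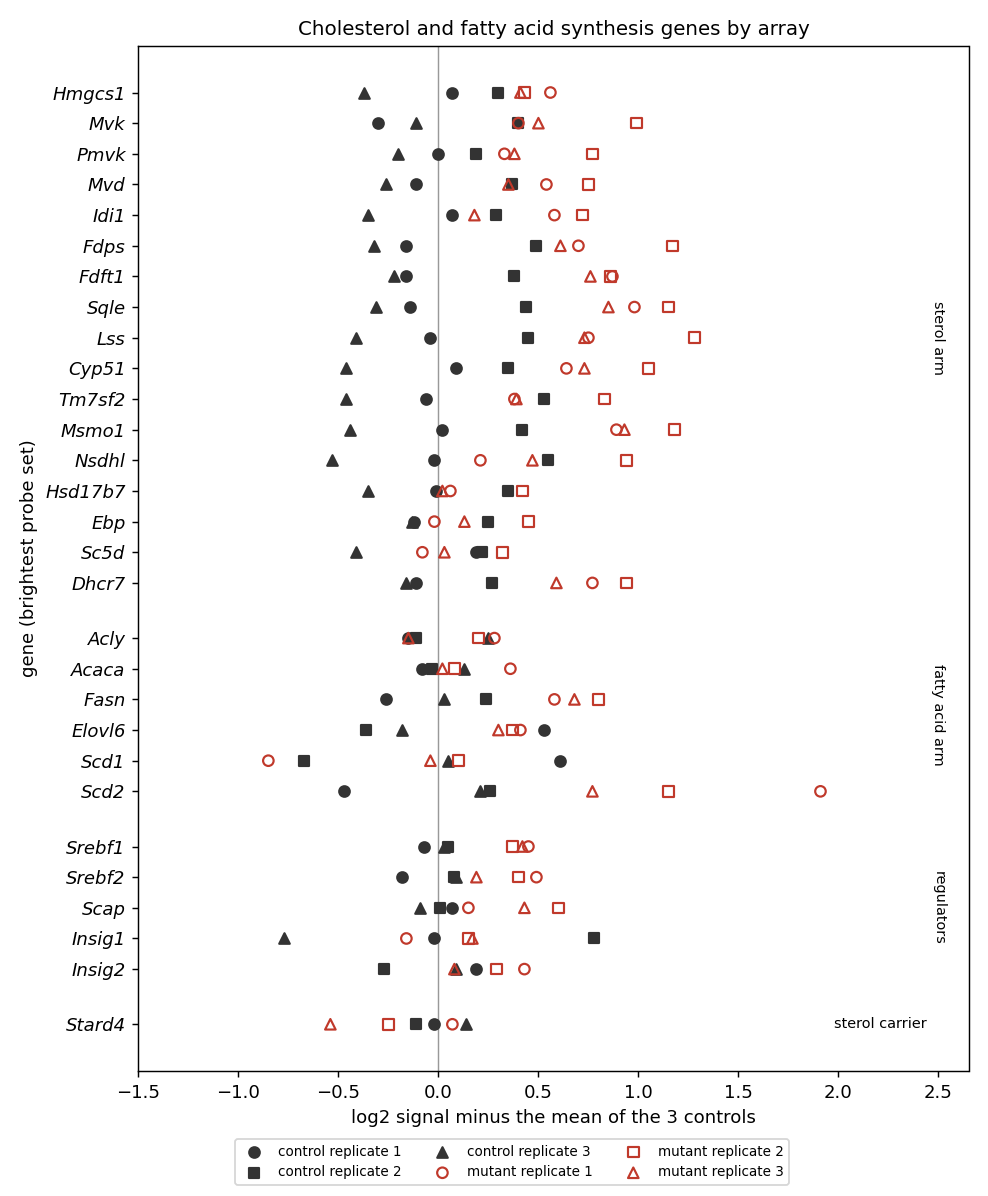
Log2 signal of each measured gene relative to the control mean (horizontal axis), with genes ordered by pathway step (vertical axis) and 1 symbol per array (filled, controls; open, mutants). The open symbols of Sqle, Fdft1, Msmo1, Dhcr7, Fasn, Scd2 and Srebf1 all lie to the right of the filled ones, while those of Insig1 lie among them and those of Scd1 and Sc5d overlap them.

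The early sterol steps make isoprenoid units from acetyl-CoA and join them. Hmgcs1, which makes HMG-CoA, had a log2 difference of 0.47, Mvk, mevalonate kinase, of 0.63, Pmvk, the next kinase, of 0.50, Mvd, the decarboxylase, of 0.55, Idi1, the isomerase of isopentenyl diphosphate, of 0.49, and Fdps, farnesyl diphosphate synthase, of 0.83. The median of these 6 genes was 0.52. Pmvk had log2 signals of 7.38, 7.57 and 7.18 in controls against 7.71, 8.15 and 7.76 in mutants, a difference of 0.50 (SE 0.16, adjusted p = 0.280 from limma). The groups did not overlap, but mutant replicate 2 stood highest, and the difference was 0.36 without it. Fdps, whose product feeds both sterols and prenylated proteins, had log2 signals of 8.96, 9.61 and 8.80 in controls against 9.82, 10.29 and 9.73 in mutants (SE of the difference 0.24, adjusted p = 0.249 from limma). The lowest Fdps mutant lay only just above control replicate 2, and the difference was 0.65 without mutant replicate 2. Hmgcs1 was the brightest of the sterol probe sets, its control mean being 10.78 ± 0.34 (SD, n = 3) and its mutant mean 11.25 ± 0.08 (SD, n = 3). For Mvk, Mvd and Idi1 the groups overlapped. Without control replicate 3, the lowest array for both genes, the differences of Hmgcs1 and Idi1 were 0.29 and 0.32.

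From farnesyl diphosphate to the first sterol, each of the 3 genes had every mutant above every control. Fdft1, squalene synthase, had log2 signals of 9.21, 9.75 and 9.15 in controls against 10.24, 10.23 and 10.13 in the mutants, a difference of 0.83 (SE 0.17, adjusted p = 0.115 from limma). The 3 mutants lay within a narrow band above all controls, and the difference was 0.81 without mutant replicate 2. Sqle, squalene epoxidase and a rate-limiting enzyme of the pathway, had log2 signals of 8.84, 9.42 and 8.67 in controls against 9.96, 10.13 and 9.83 in mutants. Its difference of 1.00 (SE 0.20, adjusted p = 0.112 from limma) is a ratio of 1.99, and it was 0.92 without mutant replicate 2. Lss, lanosterol synthase, had log2 signals of 7.68, 8.17 and 7.31 in controls against 8.47, 9.0 and 8.45 in mutants, a difference of 0.92 (SE 0.25, adjusted p = 0.211 from limma). Mutant replicate 2 was the highest for Lss, and without it the difference was 0.74. The median difference of these 3 genes was 0.92.

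The steps from lanosterol to cholesterol were split. Cyp51, the lanosterol demethylase, Msmo1, the methylsterol oxidase, and Dhcr7, the reductase that yields cholesterol, had mutants above all controls. Cyp51 had log2 signals of 8.88, 9.14 and 8.33 in controls against 9.43, 9.84 and 9.52 in the mutants, a difference of 0.81 (SE 0.22, adjusted p = 0.216 from limma). Msmo1 had log2 signals of 9.54, 9.94 and 9.08 in controls against 10.41, 10.70 and 10.45 in mutants, a difference of 1.00 (SE 0.22, adjusted p = 0.135 from limma). Its controls themselves spanned from 9.08 to 9.94. Dhcr7 had log2 signals of 9.24, 9.62 and 9.19 in controls against 10.12, 10.29 and 9.94 in mutants, a difference of 0.77 (SE 0.15), and its adjusted p of 0.105 from limma was the smallest of all members. Without mutant replicate 2 the differences of Cyp51, Msmo1 and Dhcr7 were 0.69, 0.91 and 0.69.

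The other genes between lanosterol and cholesterol overlapped between the groups. Tm7sf2, a sterol reductase, had a log2 difference of 0.53, and Nsdhl, a dehydrogenase that removes the methyl groups at carbon 4 with Msmo1, of 0.54. Hsd17b7, the keto reductase of the same complex, had 0.17, and Ebp, the sterol isomerase, had 0.19. These values depended on single arrays. Without control replicate 3 they were 0.30 for Tm7sf2, 0.28 for Nsdhl, -0.001 for Hsd17b7 and 0.12 for Ebp. Without mutant replicate 2, Nsdhl was at 0.34, Hsd17b7 at 0.05 and Ebp at 0.06. Without control replicate 2, Nsdhl was at 0.82, Hsd17b7 at 0.35 and Ebp at 0.31, and Ebp was at 0.29 without mutant replicate 1. Sc5d, a sterol desaturase, had 0.09 with a 95% confidence interval of -0.38 to 0.56, and leaving out single arrays gave values from -0.11 to 0.20. Its 2 dimmer probe sets had differences of -0.14 and -0.36. The median over the 8 genes of these steps was 0.54, from 0.09 for Sc5d to 1.00 for Msmo1.

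Sterol genes also shared an order among mice of the same genotype. Control replicate 2 was the highest of the controls for 17 of the 17 sterol genes, and control replicate 3 was the lowest for 16 of 17. Over all genes these shares were 49.4% and 34.9%. Mutant replicate 2 was the highest mutant for 15 of 17, against 44.6% of all genes. The median of the sterol arm, relative to the control mean on the log2 scale, was -0.04, 0.37 and -0.35 in controls against 0.56, 0.86 and 0.47 in mutants. The controls thus spread over a range larger than that of the mutants, and the SD of the mutants was below that of the controls for 15 of 17 sterol genes, against 53.7% of all genes. For 7 of the 17 the group difference was larger than the whole range of the controls, against 16.0% of all genes. The fatty acid arm did not share this order, since control replicate 2 was the highest control for 2 of its 6 genes and mutant replicate 1 the highest mutant for 4 of 6.

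**Figure D2:**
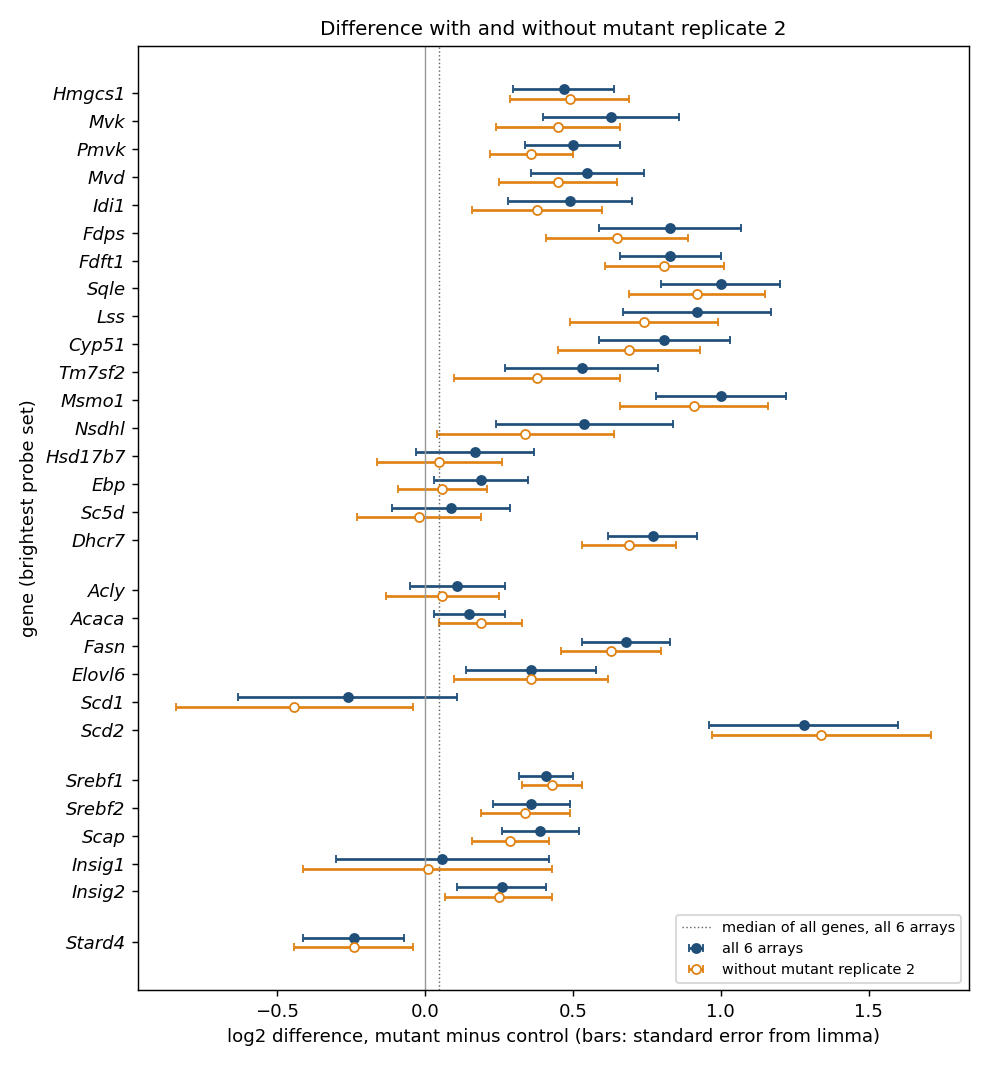
Log2 difference, mutant minus control, of each measured gene from all 6 arrays with its standard error (filled symbols and bars) and without mutant replicate 2 (open symbols). Sqle and Msmo1 lie at 1.00 and Scd2 at 1.28 with all arrays, and leaving out mutant replicate 2 moves most sterol genes toward 0.

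The fatty acid arm held 2 genes with mutants above all controls. Fasn, the fatty acid synthase, had log2 signals of 8.98, 9.48 and 9.27 in controls against 9.82, 10.04 and 9.92 in the mutants, a difference of 0.68 (SE 0.15, adjusted p = 0.126 from limma). The mutants lay close together, and the difference was 0.63 without mutant replicate 2. Scd2, a stearoyl-CoA desaturase that makes monounsaturated fatty acids, had log2 signals of 9.39, 10.12 and 10.07 in controls against 11.77, 11.01 and 10.63 in mutants. The Scd2 difference of 1.28 (SE 0.32, adjusted p = 0.182 from limma) was the largest of all members, a ratio of 2.42, with mutant replicate 1 highest. It was 1.34 without mutant replicate 2, and the 2 other Scd2 probe sets had differences of 1.28 and 1.36.

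Scd1, the paralog of Scd2 with the same enzyme activity, did not share that pattern. Its log2 signals were 11.07, 9.79 and 10.51 in controls against 9.61, 10.56 and 10.42 in mutants, so that the groups overlapped widely. The difference was -0.26 with a 95% confidence interval of -1.14 to 0.62, it was 0.05 without control replicate 1, 0.03 without mutant replicate 1, -0.59 without control replicate 2 and -0.44 without mutant replicate 2, and a dimmer probe set of Scd1 had a difference of 0.26 in the other direction. Mutant replicate 1 was the lowest array for Scd1 and the highest for Scd2. The difference of Scd2 exceeded that of Scd1 by 1.54 on the log2 scale. An exact two-sided permutation test over the 20 regroupings of the mice gave p = 0.2. Its smallest possible p is 0.1, so it could not have passed 0.05 and decides nothing about the pair. This pair was compared after its values had been seen, and how far probe sets of paralogs share RNA was not tested.

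Enzymes that supply and extend the chain were nearer to 0. Acly, which makes cytosolic acetyl-CoA from citrate, had a log2 difference of 0.11 with a 95% confidence interval of -0.28 to 0.49. Acaca, the carboxylase of the first committed step, had 0.15, with an interval of -0.14 to 0.44. Elovl6, which elongates palmitate, had 0.36, and its groups overlapped because control replicate 1, at 9.33, exceeded every mutant. Its mutants ranged from 9.10 to 9.21, and its difference was 0.63 without control replicate 1 and 0.19 without control replicate 2. The difference of Acaca was 0.05 without mutant replicate 1, and that of Acly lay between 0.02 and 0.24 over the 6 arrays left out in turn.

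Among the regulators, the genes of the SREBP precursors and their escort had every mutant above every control at their brightest probe set. The groups overlapped for the INSIG genes. Srebf1, which encodes SREBP1, had log2 signals of 8.69, 8.81 and 8.79 in controls against 9.21, 9.13 and 9.18 in the mutants. Both groups were tight, and the difference of 0.41 (SE 0.09, adjusted p = 0.130 from limma) was 0.43 without mutant replicate 2. Whether the probe set tells the SREBP1a and SREBP1c transcripts apart was not tested. Srebf2, which encodes SREBP2, had log2 signals of 9.18, 9.44 and 9.45 in controls against 9.85, 9.76 and 9.55 in mutants, a difference of 0.36 (SE 0.13, adjusted p = 0.316 from limma). Scap had log2 signals of 9.70, 9.64 and 9.54 in controls against 9.78, 10.23 and 10.06 in mutants, a difference of 0.39 (SE 0.13, adjusted p = 0.306 from limma). A dimmer Scap probe set had a difference of -0.21, and the mean of all Scap probe sets gave 0.09. Mutant replicate 1 lay just above the controls for Scap, and mutant replicate 3 just above them for Srebf2.

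Insig1, itself a sensitive SREBP target, had the widest controls of all members. Its log2 signals were 9.14, 9.94 and 8.39 in controls against 9.0, 9.31 and 9.33 in mutants, so that every mutant lay inside the control range. The difference was 0.06 with a 95% confidence interval of -0.80 to 0.91, and it was 0.45 without control replicate 2 and -0.33 without control replicate 3. Insig2, the second INSIG protein, had log2 signals of 8.59, 8.13 and 8.49 in controls against 8.83, 8.69 and 8.48 in mutants, a difference of 0.26 (interval -0.10 to 0.63). Its difference was 0.13 without control replicate 2. Stard4, which carries cholesterol between membranes and is also an SREBP target, had log2 signals of 9.86, 9.77 and 10.02 in controls against 9.95, 9.63 and 9.34 in mutants. Its difference of -0.24 (interval -0.64 to 0.15) had the opposite sign to the sterol enzymes, and its 2 other probe sets had -0.36 and -0.30. It was -0.40 without mutant replicate 1 and -0.09 without mutant replicate 3.

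The choice of probe set mattered little for the direction of most genes. Of 38 further probe sets of 20 members, 30 had the sign of the brightest one, and of the 27 with a mean log2 signal of 5 or more, 22 did. The 5 bright ones that did not belong to Elovl6 (-0.06), Fdft1 (0.00), Scd1 and Sc5d. Fdft1 had a second bright probe set with a difference of 0.84 and a dimmer one with 0.12. The other 9 members had a single probe set.

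**Figure D3:**
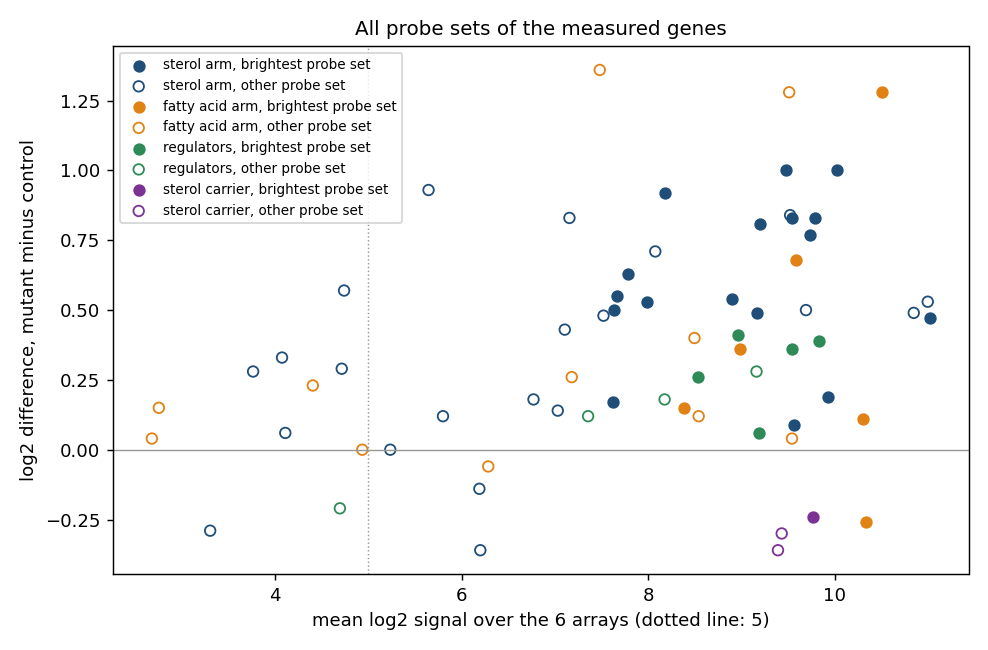
Log2 difference, mutant minus control, of every probe set of the measured genes (vertical axis) against its mean log2 signal over the 6 arrays (horizontal axis), with the brightest probe set of each gene filled. Bright probe sets lie mostly above 0, while the brightest of Scd1 and all 3 of Stard4 lie below it.

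Other genes of the pathways, taken from lists of their functions, did not all follow the enzymes. Of 23 further genes of sterol and isoprenoid handling, 15 had a probe set, and 6 of these were higher and 9 lower, with a median log2 difference of -0.06. None passed the adjusted threshold, and at an unadjusted p under 0.05 there were 2 higher and 3 lower, against 10.0% and 6.18% of all genes. Aacs, which makes acetoacetyl-CoA for lipid synthesis, had a difference of 0.68, and Pdss2, of ubiquinone synthesis, had 0.42. Ggps1, which diverts farnesyl diphosphate to protein prenylation, had -0.36, and Nr1h3, the oxysterol receptor LXRα that activates Srebf1, had -0.44. Those 4 genes had the smallest p of their list, with adjusted p from 0.181 for Pdss2 to 0.339 for Ggps1 from limma.

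Of 24 further genes of fatty acid synthesis and its supply, 23 had a probe set, 18 of them with a positive difference, and the median was 0.21. None passed the adjusted threshold, and at an unadjusted p under 0.05 there were 5 higher and 3 lower, against the same shares of all genes. Me1, malic enzyme, which supplies NADPH, had log2 signals of 7.82, 8.30 and 8.34 in controls against 9.52, 8.98 and 8.77 in the mutants, a difference of 0.93 (adjusted p = 0.174 from limma). Mutant replicate 1 was the highest for Me1, as it was for Scd2. Elovl1, an elongase of long chains, had 0.78, and Acacb, the mitochondrial carboxylase that restrains fatty acid oxidation, had 0.58. Mlxipl, which encodes ChREBP, the glucose-responsive activator of lipogenic genes, had the opposite sign. It had log2 signals of 6.73, 6.05 and 6.43 in controls against 5.43, 5.40 and 5.63 in mutants, a difference of -0.92 (SE 0.18, adjusted p = 0.103 from limma), and with arrays weighted by quality its adjusted p was 0.0365.

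The median of the cell division genes shared the order of the sterol arm median over the arrays. Markers of other cell types differed between the arrays as well. The median of 17 measured cell division genes, relative to the control mean on the log2 scale, was -0.06, 0.28 and -0.16 in controls against 0.74, 1.16 and 0.54 in mutants. That of all genes was -0.02, 0.05 and -0.02 in controls against 0.04, 0.08 and 0.02 in mutants. The order was not counted gene by gene for cell division, and single genes such as Mcm2, with mutant replicate 2 the lowest mutant, departed from it. All 17 cell division genes had a positive difference, with a median of 0.82, 14 of them at an unadjusted p under 0.05, against 10.0% of all genes, and none past the adjusted threshold. The median of 12 gut epithelium markers was 0.06, -0.01 and -0.05 in controls, against 0.16 to 0.21 over the mutants. The median of 8 adipocyte markers was 0.13, 0.32 and -0.56 in controls, against -0.99 to -0.14 over the mutants. That of the fibroblast and matrix markers was -0.04, 0.27 and -0.26 in controls. The adipocyte and the fibroblast and matrix lists thus shared the control order of the sterol arm, but not its mutant order. The gut epithelium list did not share its control order. Adipoq, a defining adipocyte marker, had a log2 signal of 8.21 or more in every array. For the other lists the median difference was -1.57 for smooth muscle, -1.21 for fibroblasts and matrix, -0.44 for 9 genes of enteric neurons and glia, -0.83 for 11 leukocyte genes and 0.09 for 10 genes of squamous epithelium. Without mutant replicate 2 these medians were -0.35, -0.25, -0.27, -0.36 and 0.04 in the same order. Without that replicate, in which muscle and matrix RNA was lowest, the sterol arm median was 0.45, the fatty acid arm median 0.27 and the regulator median 0.29. The part of cell division, of tissue makeup and of sex in the differences of the synthesis genes was not tested.

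**Figure D4:**
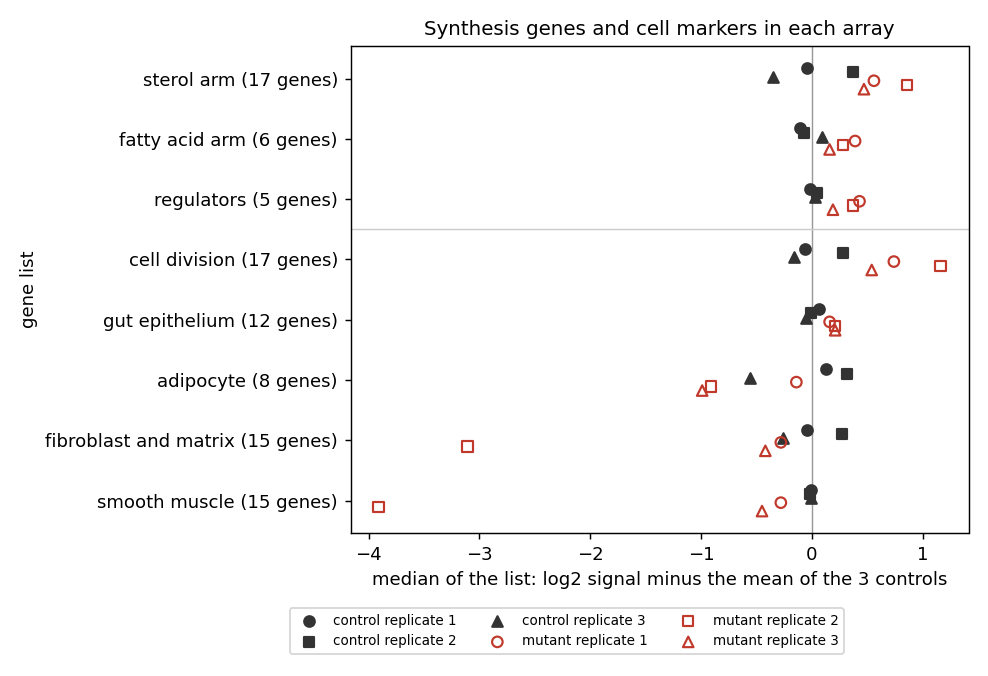
Median of each gene list (vertical axis) by array, as log2 signal relative to the control mean (horizontal axis), with filled symbols for controls and open symbols for mutants. The sterol arm and cell division lists have the same order of arrays, and fibroblast and adipocyte markers share that order among controls only. Mutant replicate 2 lies at -3.11 and -3.91 for fibroblast and smooth muscle markers.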

How the data were processed

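RNA of 6 mice, 3 control and 3 Hnf4α mutant, was measured on Affymetrix mouse genome arrays, 1 mouse per array. The authors had applied RMA to the arrays, and the deposited values, on a log2 scale, were used as given. Array medians were between 5.43 and 5.53. RMA compresses the differences of dim probe sets, and arrays carry no read depth, so that their number limits the precision. After 64 control probe sets were left out, 45037 were tested with limma 3.58.1 in R 4.3.3, mutant minus control with no covariate, and p-values were adjusted over all of them by the Benjamini-Hochberg method. The annotation gave 1 symbol to 34945 probe sets, several to 932 and none to 9160. The methods' own test, SAM, was not run. limma was checked on simulated data with independent noise, no outlying array and planted changes larger than the difference of any member. That check does not cover changes of the size reported here.

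The members, pathway lists and marker lists were chosen with earlier results of these data known. All members were named. Values per array were given for the 12 members with the smallest p, for every regulator, and for Scd1, Scd2 and Stard4, and of each pathway list the 4 genes with the smallest p were named. Alternatives were each replicate left out, a replicate block, array weights, an intensity trend, median centring, a filter on a mean log2 signal under 5, and the mean of all probe sets of a gene. With 3 mice against 3 an exact two-sided permutation test gives no p below 0.1. Promoter sequences were those of RefSeq on GRCm38.p6.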

Additional observations from a re-analysis of the deposited data

How the results depend on the processing

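Of 29 measured members, 24 kept the sign of their difference in all 12 alternatives. The sign turned for Scd1 without control replicate 1 (0.05) and without mutant replicate 1 (0.03), for Hsd17b7 without control replicate 3 (-0.001), for Sc5d without control replicate 3 (-0.11), without mutant replicate 2 (-0.02) and with the mean of all probe sets (-0.13), for Insig1 without control replicate 3 (-0.33) and without mutant replicate 3 (-0.002), and for Acly with array weights (-0.02). No member passed the adjusted threshold with all arrays (17 at an unadjusted p under 0.05, from limma). With array weights 4 did, as did 599 of the 45037 probe sets, against 239 with all arrays at equal weight. Leaving out 1 replicate gave 0 to 2, with 2 (Fdft1 and Sqle) without control replicate 2. Over the replicates left out in turn, 39 to 336 of all probe sets passed, with 336 without control replicate 2. The number at an unadjusted p under 0.05 was 11 to 19 when 1 replicate was left out, with 11 without control replicate 3 and without mutant replicate 2. Without mutant replicate 2, 6.29% of all genes were higher at that threshold. The share of all genes was not computed for the other alternatives. The regulator median was 0.19 with the mean of all probe sets, against 0.36. With the replicate block 0 members passed, 18 were at an unadjusted p under 0.05, and 62 probe sets of all passed against 239. Samples with the same number correlated at -0.02, 0.25 and -0.15, not every mouse correlated best with its own number, and the mice share only a number. The cause of these changes was not tested.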
